A study of Homo sapiens with 16 samples.

Results

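Among the distal CTCF sites of a human cell line, 623 combined strong CTCF signal with little of the cohesin subunit RAD21. They were drawn from 35320 intervals that lay more than 5 kb from any annotated transcript start, on chromosomes 1 to 22 and X and outside the YAP1 gene, out of 74404 intervals in all. A site was taken when it ranked among the top 4000 of these intervals by mean CTCF signal in vehicle and fell outside the top 8000 by mean RAD21 signal in vehicle. The other 3377 of the top 4000 CTCF intervals are called distal CTCF sites with RAD21 and serve for comparison, as do the remaining 31320 distal intervals. The 623 members are 15.6% of the top 4000.

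The study used CUT&Tag, in which a transposase bound to an antibody tags the DNA near the antibody's target, in HEK293, a human embryonic kidney cell line, with the genotype eGFP-YAP. Cells received vehicle or 200 mM sorbitol for 1 h, a hyperosmotic stress, and the series design states a serum starvation of 1 h before the exposure. Antibodies were directed against CTCF, RAD21, H3K27ac and GFP, the last of which reads eGFP-YAP and is called YAP1 here. For each of the 4 targets there were 2 libraries with vehicle and 2 with sorbitol, 16 in all, and the stated purpose of the CTCF and RAD21 libraries was to quantify changes in the occupancy of proteins that organise chromatin. All 16 libraries came from this 1 line, in every group with the same genotype. The labels' protocol has untreated cells collected alongside the treated ones, while the vehicle columns are named for 0 h and the sorbitol columns for a later time. Whether both groups were harvested at the same time after serum starvation is not given in the sources used here. The labels do not say that replicates came from separate cultures, so p-values measure the spread between libraries, which may be technical. No library with a nonspecific antibody was analysed here.

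CTCF is a zinc finger protein that binds a long, oriented DNA motif and acts as an insulator. Cohesin is a ring-shaped complex that extrudes chromatin loops, and CTCF bound in the right orientation stops it. RAD21 is the subunit that closes the ring. Most strong CTCF sites also carry cohesin. H3K27ac marks active promoters and enhancers, and YAP1 is a transcriptional coactivator that reaches DNA mainly through TEAD factors.

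Library totals ran from 1.19 M counts (M stands for 1000000) for a RAD21 vehicle library to 8.84 M for an H3K27ac sorbitol library. Mitochondrial intervals took a share of the counts that was higher with sorbitol for 3 targets. It was 15.7% to 19.9% in vehicle and 32.8% to 33.9% in sorbitol for CTCF, 34.3% to 38.5% and 44.8% to 46.0% for RAD21, and 36.5% to 38.1% and 55.4% to 57.8% for YAP1, against 1.95% to 2.08% in all H3K27ac libraries. Library totals here include these counts. Members took 1.40% and 1.26% of the counts of the CTCF vehicle libraries and 0.673% and 0.688% of those of the CTCF sorbitol libraries. As a check of the cell line, 6 of 6 HEK293 marker genes had an interval within 1 kb of a start, with a summed H3K27ac level of 389 and 408 CPM (counts per 1000000 of the library total) in the vehicle libraries. Of 5 colon markers, 2 had one, and CDX2 alone gave 148 and 144 CPM. VIL1, KRT20 and LGALS4 had none. Of 3 blood markers, 1 had such an interval, at 1.83 and 0.153 CPM, and of 2 liver markers none.

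The sequences shown first are tandem arrays of the CTCF consensus, since the 2 members with the most CTCF in sorbitol are such arrays. A match is counted here to the 14-base CTCF consensus with at most 1 mismatch on either strand. Of the 623 members, 28 held 2 or more matches and 3 held more than 3. These 3 arrays are printed as 300 bases of the hg38 plus strand, with matches in capitals. The array on chromosome 7 lies between genes, 6670 bp from the nearest start, that of FAM20C, a secretory pathway kinase. It held 17 matches, all on the plus strand and 53 bp apart. The array on chromosome 6 lies in an intron of the unnamed gene ENSG00000230423 and held 9 matches, all on the minus strand and 68 bp apart. The array on chromosome X lies in an intron of WWC3, a gene of the WWC family of Hippo pathway regulators, and held 5 matches on the minus strand at a median spacing of 55 bp.
chr7:262914-263213, plus strand: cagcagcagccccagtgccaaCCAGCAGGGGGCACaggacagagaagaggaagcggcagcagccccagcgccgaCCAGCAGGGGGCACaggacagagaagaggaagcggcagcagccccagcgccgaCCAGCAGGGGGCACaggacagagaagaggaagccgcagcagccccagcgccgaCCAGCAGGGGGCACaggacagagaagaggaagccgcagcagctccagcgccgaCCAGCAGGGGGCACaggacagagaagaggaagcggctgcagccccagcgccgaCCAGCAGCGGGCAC
chr6:170712884-170713183, plus strand: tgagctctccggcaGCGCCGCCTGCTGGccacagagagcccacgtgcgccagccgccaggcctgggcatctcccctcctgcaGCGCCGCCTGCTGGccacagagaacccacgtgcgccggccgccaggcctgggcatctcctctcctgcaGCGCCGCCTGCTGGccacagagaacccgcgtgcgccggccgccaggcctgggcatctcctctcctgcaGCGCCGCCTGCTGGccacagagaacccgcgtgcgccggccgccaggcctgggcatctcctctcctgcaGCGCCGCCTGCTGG
chrX:10119507-10119806, plus strand: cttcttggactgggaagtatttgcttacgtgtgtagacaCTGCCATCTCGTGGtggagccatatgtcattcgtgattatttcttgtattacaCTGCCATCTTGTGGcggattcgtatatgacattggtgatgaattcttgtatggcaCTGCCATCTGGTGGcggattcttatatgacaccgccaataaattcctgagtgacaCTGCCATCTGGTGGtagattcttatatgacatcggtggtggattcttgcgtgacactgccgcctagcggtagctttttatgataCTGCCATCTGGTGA

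Most members held a single match. The following sites are described by their signal further on, and each is printed in the orientation of the CTCF consensus with 8 bases on either side and the match in capitals.
TMBIM7P intron, chr7:92424753-92424782, plus strand: cactttgaCCACCAGGGGGCGCagaaccaa
AKAP13 intron, chr15:85486116-85486145, plus strand: ttatgttgCCACTAGGTGGCACtatgtcat
near RBSN, chr3:15108252-15108281, plus strand: cttgccagCCACCAGGGGGCGGcatctggc
POU2F1 intron, chr1:167268000-167268029, plus strand: gtgtttacCCTGCAGGTGGCGCtggtggtt
near RBBP7, chrX:16892975-16893004, minus strand: aggctctgCCAGTAGGGGGAGCtagataga
PTPRE intron, chr10:128078666-128078695, plus strand: tggcctggCCAGTAGGTGGAGCacacacct

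The consensus was more frequent at members than at CTCF sites with RAD21. It was found in 450 members, or 72.2% (95% Wilson interval 68.6 to 75.6%), in 60.3% of sites with RAD21 (58.6 to 61.9%) and in 14.5% of the rest of the distal intervals. With no mismatch allowed the shares were 28.9%, 21.1% and 3.42%, and with at most 2 mismatches 92.8%, 88.1% and 32.6%. Members were narrower, with a median width of 533 bp against 638 bp, and so offered fewer positions for a chance match. Over the central 300 bases of each interval the shares were 65.5% for members, 50.8% for sites with RAD21 and 13.8% for the rest. The members' matches also lay nearer the interval centre, with 48.0% within 50 bp of it against 39.8%. The plus strand held 51.1% of the members' best matches. Within a gene, 53.5% of members' matches were on the gene's strand, against 46.4% for sites with RAD21.

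The difference was present at each level of CTCF signal. Among sites ranked 1 to 1000 by vehicle CTCF signal, 83.3% of 18 members and 67.0% of 982 sites with RAD21 held the consensus, and the intervals overlapped. For ranks 1001 to 2000 the shares were 81.2% and 62.4%, for ranks 2001 to 3000 73.5% and 57.6%, and for ranks 3001 to 4000 68.7% and 50.7%. In each of the lower 3 rank groups the Wilson intervals of members and comparison sites did not overlap. These intervals treat sites as independent, although some comparison sites on chromosome 19 hold the same sequence around the match.

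**Figure D1:**
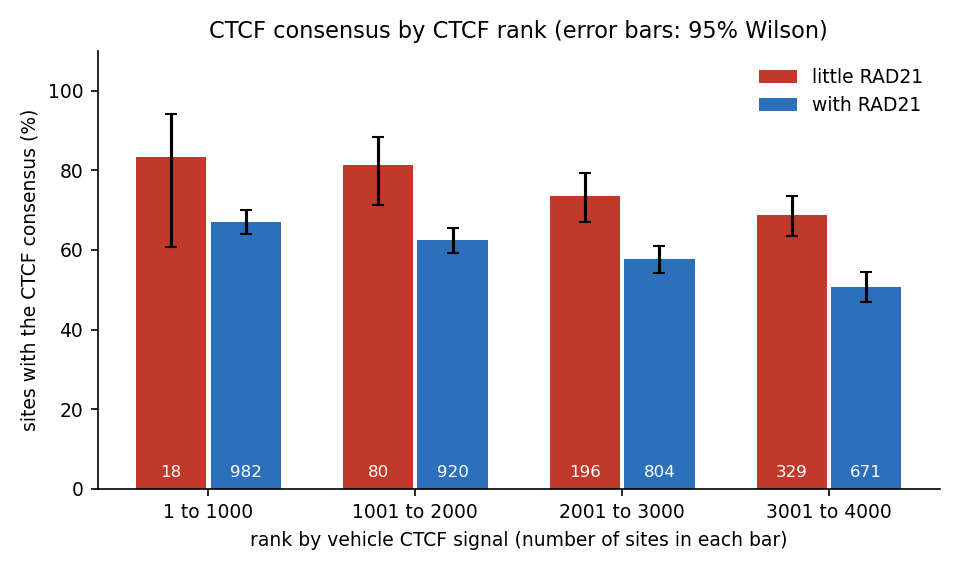
Share of sites with the CTCF consensus (at most 1 mismatch, in %) in 4 groups by rank of vehicle CTCF signal, for members (red) and distal CTCF sites with RAD21 (blue); error bars are 95% Wilson intervals and white figures give the number of sites. Members stood higher in every rank group, from 83.3% against 67.0% in the strongest group to 68.7% against 50.7% in the weakest.

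Of the 5 other motifs searched, 4 were less frequent at members than at sites with RAD21 and 1 was more frequent. The AP-1 motif TGANTCA was found on either strand in 13.0% of members, 14.5% of sites with RAD21 and 12.7% of the rest. The TEAD motif GGAATG was found in 28.4%, 32.6% and 18.2%, the E-box CACGTG in 10.4%, 12.6% and 4.82%, and the GATA motif AGATAA in 17%, 18.6% and 15.7%. The RUNX motif was the exception, found in 3.53% of members, 3.02% of sites with RAD21 and 2.32% of the rest. These shares are over whole intervals, which differ in width.

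By annotation, 284 members (45.6%) lay between genes and 270 (43.3%) in introns, while 29 overlapped an untranslated region, 26 a coding sequence and 14 another exon. The comparison sites lay between genes in 52.0% and in introns in 38.8% of cases. Median GC content was 50.2% for members, 53.6% for sites with RAD21 and 49.6% for the rest. Members were more isolated from the other strong CTCF sites. The median distance from a member to the nearest site with RAD21 was 148 kb, with 11.1% within 10 kb, whereas the median from such a site to the nearest other one was 98.0 kb, with 19.2% within 10 kb. The median distance between a member and the nearest other member was 870 kb. Members were found on chromosomes 1 to 22 and X, from 3 on chromosome 13 to 90 on chromosome 1, and 17 lay within 1 Mb of a chromosome end.

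Few strong distal CTCF sites of either kind lay near genes that CTCF regulates in textbook cases, and the gene lists are short. Intervals within 5 kb of a transcript start were left out by the rule, so CTCF sites at the starts of these genes could not be counted. Low counts here therefore do not show that CTCF sites are rare at these genes, and shares over all intervals were not computed. Shares given here are of sites, and genes with a site nearby were not counted. Within 50 kb of 15 imprinted genes there was 1 member, 0.161% of members against 0.178% of sites with RAD21. It lies within 50 kb of IGF2, a growth factor gene expressed from the paternal allele. The site is intergenic, and its nearest protein-coding start, 23047 bp away, is that of TH. That site, chr11:2194862-2195362, had 82 and 63 CTCF counts in the vehicle libraries and 65 and 47 in the sorbitol libraries. None lay near the clustered protocadherins or HOX genes, where sites with RAD21 had 0 and 3. None lay near 22 YAP targets, 12 osmotic stress genes or 13 cohesin and CTCF genes, near which 0.207%, 0.0296% and 0.118% of sites with RAD21 lay. Zinc finger genes had 17 members near them, 2.73% of members against 2.75% of sites with RAD21.

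The values that chose the members were as follows, and they are given as a description. Mean vehicle CTCF signal at members ran from 15.5 to 137 CPM with a median of 19 CPM, against a median of 27.3 CPM at sites with RAD21. Mean vehicle RAD21 signal had a median of 3.89 CPM, with a lowest value of 0, against 10.9 CPM. Members were concentrated among the weaker of the top 4000, with 18, 80, 196 and 329 in successive groups of 1000 ranks. The last member by CTCF, chr12:8890481-8891142, had 56 and 62 CTCF counts in the vehicle libraries, and the next interval below it with low RAD21, chr10:13659729-13660416, had 76 and 47, both with a mean of 15.5 CPM. The member nearest the RAD21 threshold, chr6:138428886-138429592, and the CTCF site just above it, chr3:102228975-102229449, had the same RAD21 counts of 16 and 4, a mean of 5.17 CPM. There were 83 distal intervals tied at this value, of which 4 were members.

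The RAD21 threshold rested on few counts. The median member had 10 RAD21 counts in vehicle replicate 1 and 3 in replicate 2, and the median comparison site had 28 and 11. When the rule was applied to replicate 1 alone it chose 657 intervals, and to replicate 2 alone 984, and these lists shared 252, which is 38.4% of the former and 25.6% of the latter. Of the 623 members, 393 were on the list from replicate 1 and 448 on that from replicate 2.

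In libraries that did not enter the choice, RAD21 at members remained below that at sites with RAD21. When sites were chosen on vehicle replicate 1, the log2 ratio of the median RAD21 level (CPM per kb of interval) between members and comparison sites was -0.85 in vehicle replicate 2 and -0.79 and -0.91 in the sorbitol libraries. With the replicates exchanged it was -0.77 in vehicle and -0.73 and -0.74 in sorbitol. In the libraries used for the choice the ratio averaged -1.40. The sorbitol values of held-out members lay within 0.06 of the vehicle value on the log2 scale, and with 1 vehicle library per version this was not tested. Summed counts, which weight the strongest sites most, moved further apart, with log2 ratios of -3.98 in vehicle and -4.37 and -4.46 in sorbitol for the former version and of -2.93, -3.64 and -3.59 for the latter. Sites above 1000 CPM in any library were left out of these sums. A lower median at members was not particular to RAD21. In vehicle, the same ratio of medians was -1.02 and -0.72 for H3K27ac and -0.78 and -0.64 for YAP1, for sites chosen on replicate 1 and 2. For CTCF it was -0.35 and -0.34. At vehicle CTCF ranks 2001 to 3000, median RAD21 in sorbitol was 2.11 and 1.63 CPM at the 623-member set's sites and 2.81 and 3.27 CPM at sites with RAD21.

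With the 623 members chosen on both replicates, the sorbitol libraries had median RAD21 levels of 2.11 and 1.63 CPM at members, 4.22 and 4.09 CPM at sites with RAD21, and 0.703 and 0.817 CPM at the rest. Members lay between the other sets in both libraries. There were 116 and 142 members with no RAD21 count in the respective sorbitol libraries, 18.6% and 22.8% of them, at library totals of 1.42 M and 1.22 M. At these depths a count of 0 does not show that RAD21 was absent. When the rule was applied to the sorbitol libraries, 393 members (63.1%) were outside the top 8000 by RAD21. That share was 27.9% for sites with RAD21 and 83.0% for the rest, and the top 8000 hold 22.7% of all distal intervals. In the top 4000 by CTCF were 407 members (65.3%), against 69.2% of sites with RAD21 and 4.01% of the rest. Both conditions held for 228 members, or 36.6%, against 14.1% of sites with RAD21 and 1.71% of the rest.

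**Figure D2:**
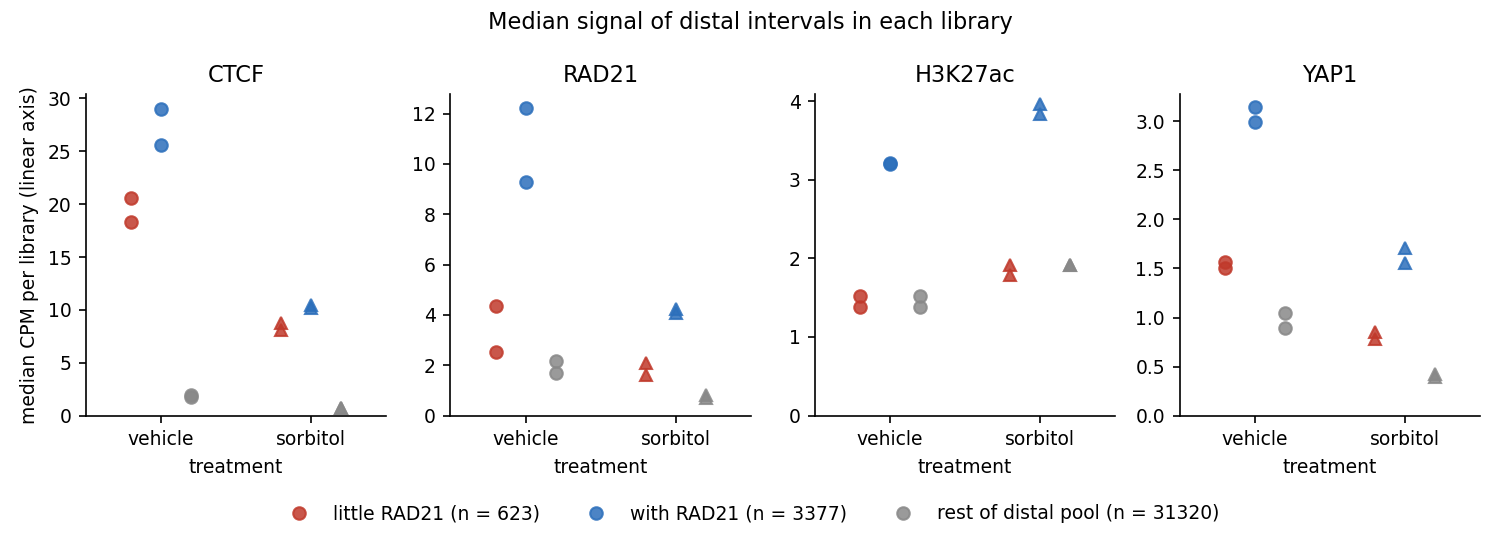
Median signal per library, in CPM on a linear axis, for members (red), distal CTCF sites with RAD21 (blue) and the rest of the distal intervals (grey), with vehicle libraries as circles and sorbitol libraries as triangles. For H3K27ac, in CPM not divided by interval width, the members lie near the rest and below the sites with RAD21 in all 4 libraries. Per kb of interval the members lie below the rest as well. The vehicle CTCF and RAD21 values chose the sets.

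RAD21 and CTCF were compared directly in the sorbitol libraries, none of which the rule used. A fit over all 72552 intervals with any counts found RAD21 lower than CTCF at 315 of 623 members (50.6%) by edgeR's quasi-likelihood test at an adjusted p under 0.05, and higher at none. Over all intervals 8.3% were lower, and over sites with RAD21 39.2%. The median log2 difference between RAD21 and CTCF was -2.21 at members, -1.32 at sites with RAD21 and -0.18 over all intervals. With the usual filter on low counts, 438 members could be tested and 233 had lower RAD21, 53.2% against 18.6% of all tested intervals. The median member had 3 and 2 RAD21 counts and 23 and 26 CTCF counts in the sorbitol libraries, so the filter was passed mostly through CTCF and only the unfiltered count covers the members. Correcting for GC content reduced the filtered count to 144, or 32.9%, where 16.3% of all tested intervals were lower. DESeq2 called 69 of the 284 members to which it gave an adjusted p, or 24.3% against 10.4%. Without CTCF sorbitol replicate 1 the count was 81 of 387 tested members, 20.9% against 10.4%, and without replicate 2 it was 86 of 384, 22.4% against 10.1%.

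**Figure D3:**
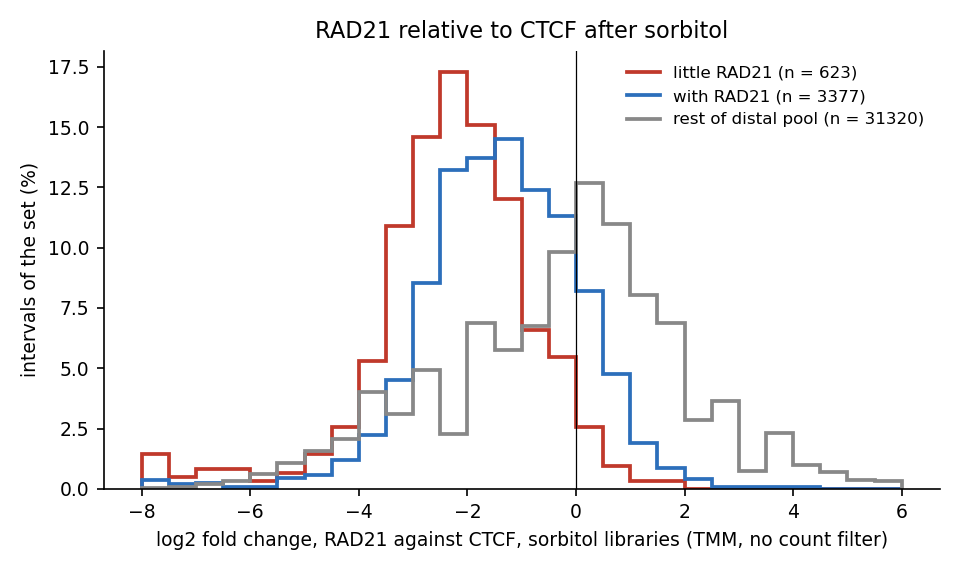
Distribution of the log2 difference between RAD21 and CTCF in the sorbitol libraries (TMM scaling, no count filter, bins of width 0.5, outermost bins holding all values beyond them) for members (red), distal CTCF sites with RAD21 (blue) and the rest (grey). Members are shifted to the left, with a median of -2.21 against -1.32 for sites with RAD21.

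At the 6 members with the most CTCF in sorbitol, RAD21 counts in sorbitol ran from 0 to 23. The chromosome 6 array (chr6:170712814-170713672) had 438 and 289 CTCF counts in the vehicle libraries and 769 and 890 in the sorbitol libraries, and its RAD21 counts were 17 and 3 in vehicle and 2 and 2 in sorbitol. Its log2 difference between RAD21 and CTCF in sorbitol was -7.16 ± 0.28 (SE; edgeR adjusted p = 1.3e-08). The chromosome 7 array (chr7:262865-263838) had 596 and 470 CTCF counts in vehicle and 819 and 720 in sorbitol, with 8 and 0 RAD21 counts in vehicle and 13 and 0 in sorbitol. All the RAD21 counts of this array came from the libraries with replicate number 1, and the 13 counts are 9.14 CPM, above the 5.17 CPM of the RAD21 threshold. The chromosome X array (chrX:10119395-10120033) had 212 and 162 CTCF counts in vehicle and 66 and 86 in sorbitol, with at most 8 RAD21 counts in any library. Reads from repeated copies can be placed at more than 1 position, and how such reads were counted is not given in the sources used here.

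An interval of 253 bp in an intron of MRPS22, a mitochondrial ribosomal protein gene, had no consensus match (chr3:139260607-139260859). Its CTCF counts were 344 and 307 in vehicle and 352 and 356 in sorbitol, and its RAD21 counts were 14 and 2 in vehicle and 0 and 0 in sorbitol. The interval in an untranslated region of TNNI1, the slow skeletal muscle troponin I gene (chr1:201408103-201408823), had 296 and 204 CTCF counts in vehicle and 213 and 208 in sorbitol, with 17, 2, 9 and 4 RAD21 counts in the same order. The TMBIM7P site (chr7:92424427-92424912) had 304 and 185 CTCF counts in vehicle and 136 and 177 in sorbitol, with 16, 2, 4 and 10 RAD21 counts. Each of these 3 sites had CTCF counts above 100 in all 4 libraries and at most 17 RAD21 counts. In CPM, RAD21 at the TNNI1 site was 6.33 in sorbitol replicate 1 and at the TMBIM7P site 8.17 in replicate 2, both above the threshold value. The sixth site, on chromosome 21 (chr21:46698838-46699521), had 16 and 0 RAD21 counts in vehicle and 23 and 0 in sorbitol, all of them in replicate 1 and reaching 16.2 CPM in sorbitol.

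The change of CTCF with sorbitol used the libraries that chose the members and is therefore first given as a description. Median CTCF counts at members were 93 and 61 in vehicle and 23 and 26 in sorbitol, or 20.6, 18.3, 8.10 and 8.78 CPM. Both sorbitol values were lower, as they were at most intervals on this scale, where the mitochondrial share given above also differed between the groups and its part in the fall was not tested. Scaling to library totals placed the median of all tested intervals at a log2 change of -1.04, whereas TMM scaling placed it at -0.06. Relative to this, members had a median of -0.24 with TMM and -1.21 with total scaling, and sites with RAD21 had -0.46 and -1.44. Of the 623 members, 63 were higher and 164 lower at an adjusted p under 0.05 with TMM, a share of 36.4%. Of all tested intervals 40.2% were called, 19.5% higher and 20.7% lower. On TMM-scaled CPM, both sorbitol libraries lay above both vehicle libraries at 145 members (23.3%) and below them at 281 (45.1%), where all intervals gave 30.4% and 29.1%. With GC correction the split turned to 123 higher and 89 lower, 19.7% and 14.3%, and the median to 0.07, where all tested intervals gave 13.9% and 17.3% and a median of -0.13.

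A comparison that shared no library with the choice came from sites chosen on 1 vehicle replicate and compared between sorbitol and the other. If the vehicle replicates came from the same culture, a deviation common to both would remain in it. The vehicle group was then 1 library, assumed to vary like the 2 sorbitol libraries from which the spread was taken. For sites chosen on replicate 1, edgeR called 44 of 657 higher and 90 lower, a share of 20.4% at a median of -0.21. Of all intervals 22.6% were called, 13.1% higher and 9.54% lower. For sites chosen on replicate 2 it called 68 of 984 higher and 169 lower, 24.1% at a median of -0.31, where all intervals gave 22.1%, with 12.4% higher and 9.71% lower. The share of members called was close to that of all intervals. The corresponding sites with RAD21 were called more often, at 39.0% and 40.0%, most of them lower, with medians of -0.44 and -0.46. With GC correction the medians of held-out members were 0.12 and 0.02, so their direction depended on this choice, and those of the sites with RAD21 were -0.35 and -0.34.

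The median CTCF level of held-out members relative to sites with RAD21, as a log2 ratio of CPM per kb, was -0.35 in the held-out vehicle library and -0.14 and -0.07 in sorbitol for sites chosen on replicate 1. For sites chosen on replicate 2 it was -0.34 in vehicle and -0.24 and -0.24 in sorbitol. In both versions each sorbitol library lay above the vehicle library, and with 1 vehicle library per version this difference was not tested. It held for the typical site and not for the sums, whose log2 ratio was -3.36 in vehicle and -3.42 and -3.39 in sorbitol for the former version and -2.49, -2.68 and -2.63 for the latter. Medians were also higher in sorbitol at equal vehicle rank among the 623 members, with ranks set by the same vehicle libraries. Members ranked 2001 to 3000 had median CTCF levels of 22.4 and 19.8 CPM in vehicle and 9.51 and 10.8 CPM in sorbitol, and sites with RAD21 of the same ranks had 23.3 and 20.8 CPM in vehicle and 6.69 and 6.76 CPM in sorbitol.

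Members that held the consensus kept more CTCF in sorbitol than those that did not. Over the 450 with a match, median CTCF was 20.8 and 18.3 CPM in vehicle and 9.16 and 9.80 CPM in sorbitol. Over the 173 without, it was 19.7 and 17.7 CPM in vehicle and 6.34 and 6.76 CPM in sorbitol. The vehicle values entered the choice of members, so their closeness in vehicle is no result. In the held-out comparison, 38 of 460 members with the consensus were higher and 52 lower, while 6 of 197 without it were higher and 38 lower, for sites chosen on replicate 1. Their median log2 changes were -0.05 and -0.64, and for sites chosen on replicate 2 they were -0.16 and -0.56. GC correction moved the former pair to 0.29 and -0.22 and the latter to 0.15 and -0.22, so the order was the same under both settings. Median GC content was 50.1% with the consensus and 50.3% without. Sites with RAD21 showed the same order, with -0.34 and -0.69 in the held-out comparison on replicate 1.

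**Figure D4:**
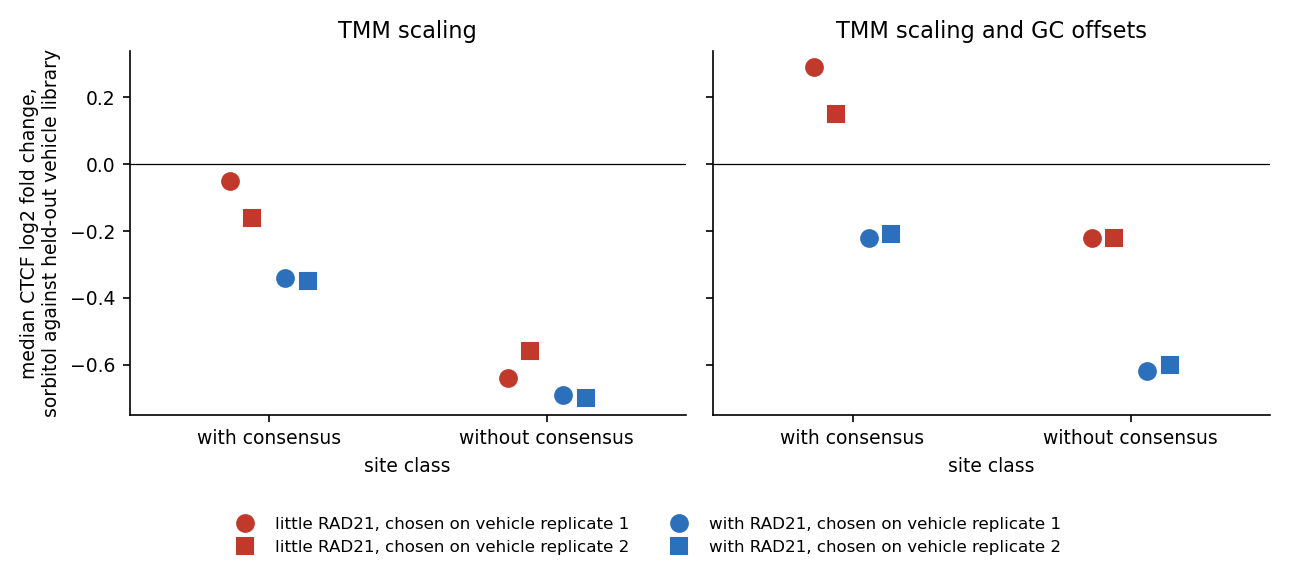
Median CTCF log2 fold change between sorbitol and the vehicle library that was not used to choose the sites, for sites with and without the CTCF consensus, under TMM scaling (left) and with GC offsets (right). Members (red) with the consensus stand at -0.05 and -0.16 on the left and at 0.29 and 0.15 on the right; in every case the sites without the consensus are lower.

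GC content also went with the CTCF change under TMM scaling. Within 4 ranges of rising GC content, the quartiles of the 623 members, held-out members chosen on replicate 1 had median log2 changes of -0.60, -0.34, 0.01 and 0.05. Sites with RAD21 in the same ranges had -0.89, -0.75, -0.50 and -0.21. For sites chosen on replicate 2 the medians were -0.46, -0.47, -0.20 and -0.06 for members and -0.92, -0.67, -0.47 and -0.24 for sites with RAD21. With GC correction the rise with GC content was gone, and the GC-richest range had the lowest median. Members then had 0.29, 0.26, 0.29 and -0.23 for replicate 1 and 0.36, 0.11, 0.15 and -0.37 for replicate 2. Sites with RAD21 had -0.06, -0.18, -0.23 and -0.55, and -0.07, -0.08, -0.20 and -0.61. In both versions the members had the higher median in each range, also with GC correction, and no test was made of this difference. The part of GC content in these results was not tested beyond the corrected values given.

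Individual members moved far in either direction. The chromosome 6 array rose by 2.61 ± 0.13 on the log2 scale and by 1.63 with total scaling. The chromosome 7 array rose by 1.94 ± 0.14 and by 0.96 with total scaling. A site 10462 bp from the end of chromosome 21 (chr21:46698838-46699521), with a GC content of 79.5% and no consensus match, had 105 and 62 CTCF counts in vehicle and 157 and 96 in sorbitol, a rise of 2.04 ± 0.22 that was 0.63 after GC correction. These 3 rises lay within 1 Mb of a chromosome end, where 17 members had a median of 0.17.

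The falls named here are the 3 largest among called members whose mean CTCF level lay above the median member and whose groups did not overlap. Of the 164 called falls, 26 at other members were larger than these, down to -3.80. The largest of the 3 was in an intron of FIRRE, a long noncoding RNA gene on the X chromosome. That interval (chrX:131704209-131705298) had 396 and 263 CTCF counts in vehicle and 18 and 28 in sorbitol, a change of -2.41 ± 0.22. It held no consensus match within 1 mismatch, and its H3K27ac counts were 27 and 23 in vehicle and 28 and 38 in sorbitol. The site in an intron of PTPRE, a receptor tyrosine phosphatase gene (chr10:128078150-128078880), fell from 145 and 88 counts to 9 and 12, a change of -2.03 ± 0.34. A site 83624 bp from the start of CHRD (chr3:184468412-184469151), a gene for a secreted BMP antagonist, fell from 165 and 112 counts to 20 and 13, a change of -1.64 ± 0.30. For all 3 falls and all 3 rises the groups did not overlap on TMM-scaled CPM, and these values share the libraries that chose the members.

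**Figure D5:**
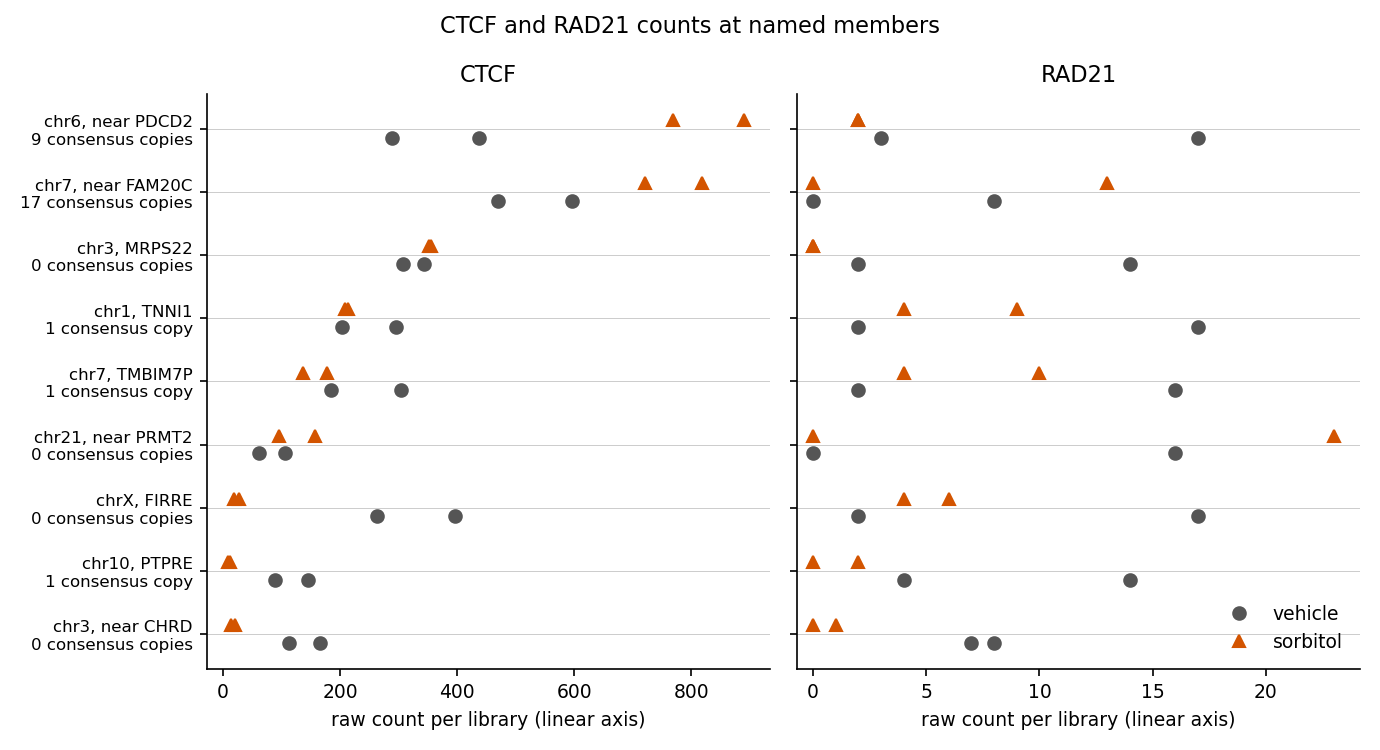
Raw counts per library (linear axes) of CTCF (left) and RAD21 (right) at the 6 members with the most CTCF in sorbitol and the 3 with the largest called CTCF falls among members above the median CTCF level; vehicle libraries are circles and sorbitol libraries triangles. The chromosome 6 array reaches 769 and 890 CTCF counts with sorbitol while its RAD21 counts are 2 and 2.

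For RAD21 itself, the change with sorbitol could hardly be measured at members. Only 1 member passed the count filter, and it was not called, where 4.79% of all tested intervals were. Without the filter edgeR called 0 of 622 members, with 25 at an unadjusted p under 0.05, where 1.81% of all intervals were called. The median was -0.27 at members, -0.84 at sites with RAD21 and -0.27 over all intervals. Vehicle RAD21 in these libraries chose both sets, so these calls and medians are a description, and the order of the medians is no result. Against the held-out vehicle library the order was the reverse. Medians were then -1.29 and -0.92 at members and -0.85 and -0.77 at sites with RAD21, for sites chosen on replicate 1 and 2. They cover only the sites that passed the count filter. In the held-out comparisons edgeR called 0 of 79 tested members for sites chosen on replicate 1, with 5 at an unadjusted p under 0.05, and 2 of 480 for sites chosen on replicate 2, both lower, where all intervals gave 4.72% and 4.09%. In the latter comparison 0.348% of all intervals were lower.

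H3K27ac was lower at members than at sites with RAD21 in all 4 libraries. Its median count was 10 and 9 in the vehicle libraries and 17 and 14 in the sorbitol libraries, which is 1.52, 1.38, 1.92 and 1.79 CPM. Sites with RAD21 had 3.20, 3.21, 3.96 and 3.84 CPM, and the rest had 1.52, 1.38, 1.92 and 1.92 CPM. Intervals of the rest were narrower, with a median width of 336 bp against 533 bp at members. Relative to the rest, per kb, members were at 0.561 and 0.539 times in vehicle and at 0.563 and 0.508 times in sorbitol. Per kb of interval, members were at 0.521 and 0.482 times the level of sites with RAD21 in vehicle and at 0.557 and 0.522 times in sorbitol. The mean log2 ratio was -0.94 ± 0.09 (SD, n = 4 libraries), below 0 in 4 of 4 libraries, with an exact sign-flip permutation p of 0.13, the smallest that 4 libraries allow. The ratio was -1.0 ± 0.08 in vehicle and -0.89 ± 0.07 in sorbitol (n = 2 each), and an exact 2-against-2 permutation test gave p = 0.33, the smallest it allows.

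This difference was present at each CTCF rank. Among ranks 1 to 1000, median H3K27ac in vehicle was 1.75 and 1.38 CPM at members and 5.79 and 5.66 CPM at sites with RAD21. Among ranks 3001 to 4000 it was 1.37 and 1.22 CPM against 1.98 and 1.99 CPM. It was also present within each of these GC groups, from 1.22 and 0.994 against 1.98 and 1.99 CPM in the lowest to 1.83 and 1.83 against 4.42 and 4.59 CPM in the highest. Only 16 members (2.57%) were among the top 4000 distal intervals by vehicle H3K27ac, against 25.9% of sites with RAD21 and 9.93% of the rest. The highest level at a member was 15.3 CPM. The 16 acetylated members held the consensus in 43.8% of cases, and their CTCF change had a median of 0.17.

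After sorbitol, H3K27ac was more often higher than lower at members, and the rest of the distal intervals showed the same order. Both sorbitol libraries lay above both vehicle libraries at 188 of 623 members (30.2%) and below them at 83 (13.3%) on TMM-scaled CPM. All intervals gave 29.4% and 27%, the rest 32.2% and 18.4%, and sites with RAD21 30.0% and 20.6%. edgeR tested 411 members and called 26 higher and 9 lower, 6.33% and 2.19%, where 8.59% and 14.5% of all tested intervals and 7.85% and 5.14% of the rest were called. Sites with RAD21 had 6.33% higher, the same share as members, and 7.56% lower. The members' combined share of 8.52% was below the 23.1% of all tested intervals, at the low counts given above. DESeq2 called 8 higher and 4 lower of 161 with an adjusted p, 4.97% and 2.48% against 4.9% and 14.7% of all intervals. Without sorbitol replicate 1 edgeR called 9 higher and 4 lower, without sorbitol replicate 2 12 and 5, and without vehicle replicate 1 20 and 4. The shares higher were then 1.99%, 2.63% and 3.94%, against 4.63%, 4.64% and 5.9% of all intervals. The median log2 change was 0.27 at members, 0.10 at sites with RAD21, 0.21 in the rest and 0.02 over all tested intervals. With no filter it was 0.26 over 622 members, with GC correction 0.14, and with total scaling 0.41, where all intervals moved to 0.17. Members with the consensus had a median of 0.34 and those without it 0.06.

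Of the members called higher, 4 are named for the size of their change. The site in an intron of AKAP13, an anchoring protein gene (chr15:85485763-85486328), had 10 and 7 H3K27ac counts in vehicle and 41 and 35 in sorbitol, a log2 change of 1.66 ± 0.44 (edgeR adjusted p = 0.0049). An intergenic site on chromosome 2 (chr2:44087070-44087577) had 11 and 13 counts in vehicle and 56 and 49 in sorbitol, a change of 1.63 ± 0.38. The site 8844 bp from the start of RBSN, an endosomal trafficking gene (chr3:15108007-15108547), went from 9 and 10 to 48 and 35. The site in an intron of POU2F1, an octamer-binding transcription factor gene (chr1:167267673-167268111), went from 8 and 12 to 45 and 39. The groups did not overlap at any of these 4 sites, and all 4 were also called higher with total scaling and with GC correction. None had more than 13 H3K27ac counts in a vehicle library, where the median member had 10 and 9. CTCF at these 4 sites did not pass the threshold with TMM scaling. With GC correction it was called higher at AKAP13, by 1.57, and at POU2F1, by 0.77, and with total scaling it was called lower at the chromosome 2 site, at -1.10, and near RBSN, at -0.57.

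Among those called lower, the site in an intron of DPYSL2, a gene for a protein of axon growth (chr8:26571110-26571628), had 30 and 34 H3K27ac counts in vehicle and 14 and 19 in sorbitol, a change of -1.43 ± 0.40 (edgeR adjusted p = 0.0071). The site near RBBP7, a histone-binding protein gene (chrX:16892719-16893250), went from 32 and 31 to 15 and 21, and an intergenic site on chromosome 12 (chr12:38138235-38139113) from 46 and 28 to 26 and 18. An intergenic site on chromosome 9 (chr9:40962570-40963074) went from 27 and 15 to 15 and 8, and with total scaling it was not called (adjusted p = 0.067). The TMBIM7P site had 100 and 101 H3K27ac counts in vehicle and 86 and 78 in sorbitol, a change of -0.78 ± 0.20 (adjusted p = 0.004). The sorbitol libraries were the deeper ones, so these raw counts lie closer together than the scaled values.

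YAP1 was lower at members than at sites with RAD21 and close to the rest of the distal intervals per kb. The median member had 6 and 5 YAP1 counts in vehicle and 2 and 2 in sorbitol. Median YAP1 levels per kb of interval at members were 3.07 and 2.57 CPM in vehicle and 1.44 and 1.35 CPM in sorbitol, and at the rest 2.96, 2.89, 1.47 and 0.891 CPM. Without division by width members lay above the rest in all 4 libraries, at 1.57 against 1.05 CPM in vehicle replicate 1, for example. Relative to sites with RAD21, per kb, the ratio was 0.613 and 0.554 in vehicle and 0.547 and 0.589 in sorbitol. The mean log2 ratio was -0.80 ± 0.08 (SD, n = 4), below 0 in 4 of 4 libraries (exact sign-flip permutation p = 0.13), and vehicle and sorbitol gave -0.78 and -0.82 (exact permutation p = 0.67). Among the top 4000 distal intervals by vehicle YAP1 were 43 members, or 6.90%, against 35.8% of sites with RAD21 and 8.78% of the rest.

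Only 58 members had enough YAP1 counts to test. edgeR called 1 higher and 0 lower, 1.72%, where all tested intervals gave 6.83%, with 5.34% higher and 1.49% lower. Of the 58, 7 had an unadjusted p under 0.05. DESeq2 called 1 higher and 1 lower, and without YAP1 vehicle replicate 2 edgeR called none. With total scaling 16 were lower and 0 higher, 27.6% lower where 63.5% of all tested intervals were, and the median of all tested intervals moved from -0.04 to -1.46. The member called higher lies 8978 bp from the start of PBX4, a homeobox gene (chr19:19554133-19554846). Its YAP1 counts were 17 and 5 in vehicle and 17 and 13 in sorbitol, a change of 2.43 ± 0.59 with TMM (edgeR adjusted p = 0.014) and of 1.0 with total scaling, which was not called (adjusted p = 0.15). Its raw counts overlapped between the groups.

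All levels here are shares of a library from many cells, so fewer cells with a bound site and less binding in each cell cannot be told apart.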

How the data were processed

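The authors deposited raw counts per peak interval, whole numbers not scaled between libraries, with the same 74404 intervals for all 16 libraries. The submitters' processing notes name Trim Galore, FastQC, BWA 0.7.17, SAMtools, Picard, bedtools 2.31.1 and MACS2 2.2.6 and the build hg38. Whether MACS2 ran on single or pooled libraries, and how reads with several positions were treated, is not given in the sources used here. Starts count from 0 in the table and from 1 in the text. Each column was assigned to a library by target, treatment and replicate number.

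Starts, genes and exons came from GENCODE release 44, and sequence and GC content from hg38. CPM is the count per 1000000 of the library total unless TMM scaling is named. Changes were tested per target on its 4 libraries, and RAD21 against CTCF on the 4 sorbitol libraries of these targets, with edgeR 4.0.16 in R 4.3.3 (robust quasi-likelihood test, two-sided, TMM, filterByExpr at 10 counts), with Benjamini-Hochberg adjustment over all tested intervals. Level ratios between sets were taken inside each library and tested by exact permutation. Shares of sites carry 95% Wilson intervals, which cover counting error only. GC correction used a lowess offset of span 0.3 per library. Alternatives were DESeq2 1.42.0 and its size factors, total scaling, other count filters, the replicate block, leaving out each library, and other versions of the rule. On simulated data with 200 intervals changed 2-fold, edgeR recovered 34% for H3K27ac, 18.5% for CTCF, 13% for YAP1, 3% for RAD21 against CTCF and 0% for RAD21, so a low count of calls at weak intervals carries little weight.

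Named sites were the 6 members with the most CTCF in sorbitol, the 4 largest called rises and falls for H3K27ac and YAP1 and the 3 largest for CTCF and RAD21 (above the median CPM of tested members, groups not overlapping), the sites at the thresholds and members within 50 kb of the gene lists. No RAD21 site met this rule, and the chromosome X array and the TMBIM7P H3K27ac change were added after their values were seen. The members, lists and tests were chosen with earlier results of these data known. Replicate numbers were not treated as pairing the libraries. No library repeated another. Alternatives for ties and chromosome ends were added after the data had been seen.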

Additional observations from a re-analysis of the deposited data

How the results depend on the processing

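Values are given in the order of the settings named. The shares below for lower RAD21 than CTCF are over members that passed a count filter, mostly through CTCF. Only the share without a filter, 50.6% of 623, covers the members. The share of tested members called for H3K27ac (8.52%) was 7.45% with DESeq2 (of 161 members with an adjusted p), 5.47% without a count filter and 33.3% (of 12 members) at a mean of at least 50 counts; leaving out each library gave 2.88% to 6.45%. For YAP1 (1.72%) it was 3.45% with DESeq2 and with its size factors, 27.6%, all lower, with total scaling, 0.323% without a filter, and 0% with the RAD21 threshold at 12000 or with members chosen on vehicle replicate 1; leaving out each library gave 0.0% to 2.4%. For lower RAD21 than CTCF in sorbitol (53.2%) it was 24.3% with DESeq2 (of 284 with an adjusted p), 88.9% (of 9) at a mean of at least 50 counts, 32.9% with GC offsets and 32.4% with the replicate block added; leaving out each library gave 20.9% to 46.3%, the lowest without CTCF replicate 1.

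The median CTCF change (-0.24) was -1.21 with total scaling, -0.43 without a filter, -0.37 with members chosen on vehicle replicate 2, 0.03 at a mean of at least 50 counts and 0.07 with GC offsets, with or without the replicate block; leaving out each library gave -0.28 to -0.20. The RAD21 change rested on 1 tested member (1.10): it was 0.46 with total scaling, -0.27 over 622 members without a filter, 0.10 with ranks per kb, -0.00081 and 0.31 with members chosen on vehicle replicate 1 or 2, and -0.14 to 1.92 without each library. Held-out CTCF calls (20.4%) were 53.9% with total scaling and 20.7%, mostly higher, with GC offsets. Held-out RAD21 calls (0) were 0.417% with the replicates exchanged and 1.27% with total scaling.

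The log2 ratios of members to sites with RAD21 were -0.94 for H3K27ac, -0.80 for YAP1 and -0.86 for RAD21 in sorbitol. They were -1.11, -1.0 and -1.16 by CPM, and -1.18, -1.08 and -0.98 with the RAD21 threshold at 12000. Ranks per kb gave -0.76 for H3K27ac and for RAD21. By means they were -2.67, -3.37 and -3.54, with sites above 1000 CPM kept in. At sites with RAD21, vehicle levels reached 21930 CPM for H3K27ac and 21290 CPM for YAP1, where the medians were 3.13 and 3.03 CPM. The consensus share (72.2%) was 28.9% with no mismatch, 92.8% with 2, 65.5% in the central 300 bases and 67.7% with ranks per kb. The cause of these differences was not tested.

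Same-numbered libraries did not deviate together over intervals (correlations between -0.009 and 0.009). At such low counts this cannot exclude that they were handled together, and the libraries were treated as unpaired. The replicate block gave 8.76% for H3K27ac, 1.72% for YAP1 and 46.6% for RAD21 against CTCF, and changed no direction. Counts limit what could be seen: the median member had 2 or 3 RAD21 and 2 YAP1 counts in a sorbitol library.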
